A study of Mus musculus with 4 samples.

Results

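Chemokines and their receptors were followed in the livers of 4 ABCA1-transgenic mice. The genes were chosen by name: a probe set was taken if its single gene symbol in the platform annotation was that of a Ccl, Cxcl, Xcl, Ccr, Cxcr or Xcr gene, or Cx3cl1 or Cx3cr1. This gave 48 genes of 12393, on 65 probe sets of 22626. They comprise 18 CC ligands, 12 CXC ligands, the ligands Cx3cl1 and Xcl1, 9 CC receptors and 7 receptors of the CXC, CX3C and XC types. Where a gene had several probe sets, the one with the highest mean log2 signal stood for it. Genes with a mean signal above 64 over the 4 arrays, 34 of the 48, were kept apart from the 14 under it, where log2 values are noisy.

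The mice were ABCA1-transgenic males of the C57BL/6 strain, 5 to 6 months old and fed the NIH36 diet, with 1 liver array for each of 4 biological replicates, called mouse 1 to mouse 4 here. The labels differ on the LDL receptor background, which is -/- in the series title and +/- in the sample descriptions, and they give neither the species nor the promoter of the transgene. Wild-type controls are part of the stated design but were not analysed here, so all 4 arrays form 1 group and values are compared between mice. Nothing in the labels says more about how the replicates were taken, so the spread between them may be partly technical.

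None of the 10 measured hepatocyte markers, Alb and Apoa1 among them, was absent: all lay above a mean signal of 64. So did 85.0% of all genes and all 14 skeletal muscle markers, so this count does not tell tissues apart. The median signal of the arrays ran from 267.3 to 305.4. Mouse 1 stood apart in several ways, whose part in the values below was not tested. Its 18S control signal was 9.95 log2, against 8.75 to 8.98 in mice 2 to 4. Its 3-prime to 5-prime difference for Gapdh was 1.67 log2, against 1.94 to 2.03. For b-Actin that difference was 1.82, with a closer 1.88 in mouse 2 and 2.12 and 2.02 in mice 3 and 4. In mouse 1 the median difference of 14 skeletal muscle markers from the mean of the other mice was -3.40 log2. Bile duct markers were low in it too, at a median of -1.24 over 4 genes above 64, and adipocyte markers at -0.67 over 5, and 12 endothelial markers at -0.14. The 11 stellate cell markers went both ways in mouse 1, from -1.04 for Col3a1, -1.01 for Acta2 and -0.83 for Col1a2 to 0.54 for Des, with a median of -0.08 and 3 at an unadjusted p under 0.05 for spread. Exocrine pancreas markers were highest in mouse 2, at a median of 1.64 log2 over the mean of the others. The RNA of all cells in a liver sample was measured together, so fewer cells of a type and less RNA per cell cannot be told apart.

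Chemokines are small secreted proteins that guide white blood cells along gradients, and their receptors are G protein-coupled receptors that signal mainly through Gi proteins. Families are named for the spacing of the first cysteines of the ligand. In the liver, endothelial cells, stellate cells, Kupffer cells, bile duct cells and hepatocytes release chemokines, and the receptors are carried largely by monocytes, lymphocytes and neutrophils that pass through the sinusoids. Inflammatory chemokines are switched on by NF-kappa-B and by interferons, whereas homeostatic ones, such as Cxcl12, are made without such a stimulus.

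The promoters of 5 CXC ligands are shown because their values form the core of the results: the neutrophil attractants Cxcl1 and Cxcl2, the interferon-inducible ligands Cxcl9 and Cxcl10, and the homeostatic ligand Cxcl12. Each is the 250 bases before the RefSeq start (GRCm38.p6), written 5′ to 3′ on the strand of the gene. Capitals mark matches, on either strand, to a kappa-B motif (GGGA and TTCC with any 2 bases between), an interferon-stimulated response element (GAAA and GAAA with any 2 bases between), a gamma-activated site (TTC and GAA with any 3 bases between) or a TATA box (TATAAA).

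Cxcl1 (chr5:90890995-90891244, plus strand): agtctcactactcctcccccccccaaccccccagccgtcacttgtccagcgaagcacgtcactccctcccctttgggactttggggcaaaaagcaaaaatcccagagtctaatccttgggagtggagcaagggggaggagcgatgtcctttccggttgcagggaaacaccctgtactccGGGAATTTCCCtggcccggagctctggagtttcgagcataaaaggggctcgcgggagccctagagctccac
Cxcl2 (chr5:90903649-90903898, plus strand): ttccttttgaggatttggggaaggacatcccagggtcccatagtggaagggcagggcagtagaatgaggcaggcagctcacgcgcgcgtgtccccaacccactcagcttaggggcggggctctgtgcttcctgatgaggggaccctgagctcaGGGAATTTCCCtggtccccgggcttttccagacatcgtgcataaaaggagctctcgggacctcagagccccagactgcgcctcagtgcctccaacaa
Cxcl9 (chr5:92328080-92328329, minus strand): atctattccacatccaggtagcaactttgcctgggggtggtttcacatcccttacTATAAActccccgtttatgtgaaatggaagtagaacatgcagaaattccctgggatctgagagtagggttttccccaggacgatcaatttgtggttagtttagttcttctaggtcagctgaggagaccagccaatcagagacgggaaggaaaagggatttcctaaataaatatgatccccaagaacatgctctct
Cxcl10 (chr5:92348890-92349139, minus strand): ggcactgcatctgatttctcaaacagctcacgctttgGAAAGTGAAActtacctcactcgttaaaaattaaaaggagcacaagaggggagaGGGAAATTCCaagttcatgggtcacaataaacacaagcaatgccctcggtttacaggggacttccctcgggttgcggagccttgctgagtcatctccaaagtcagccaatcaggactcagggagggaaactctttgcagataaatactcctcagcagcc
Cxcl12 (chr6:117168285-117168534, plus strand): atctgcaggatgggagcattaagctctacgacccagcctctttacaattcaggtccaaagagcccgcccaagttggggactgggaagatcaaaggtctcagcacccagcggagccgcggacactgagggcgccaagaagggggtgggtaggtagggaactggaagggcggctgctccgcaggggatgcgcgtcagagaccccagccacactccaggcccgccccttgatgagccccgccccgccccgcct

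Cxcl1 and Cxcl2, both on chromosome 5, held the same 11 bases, in which the motif is read on both strands with overlapping matches starting at -71 and -70 in Cxcl1 and at -97 and -96 in Cxcl2. Cxcl10 held a response element at -213 and a kappa-B match at -159, Cxcl9 a TATAAA on its own at -195, and Cxcl12 no match to these letters in this window. The RefSeq table gave 39 promoters for 35 of the 48 genes. The kappa-B motif was in 5 of them (12.8%) and in 1.21% of all 32851 promoters of the table, and its 5 genes were Cxcl1, Cxcl2, Cxcl10, Ccl1 and Ccr3. A looser form tried first, GGG and CC with any 5 bases between, was in 53.8% of the member promoters and 45.8% of all. For TATAAA the shares were 25.6% and 12.4%, for the response element 5.13% and 2.98%, and for the gamma-activated site 7.69% and 7.02%. A match is a run of letters, not a binding site.

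Of the chemokine and receptor genes 70.8% had a mean signal above 64, against 85.0% of all genes. Among the ligands 24 of 32 lay above it, and among the receptors 10 of 16. By family these were 12 of 18 CC ligands, 11 of 12 CXC ligands, 1 of the 2 other ligands, 4 of 9 CC receptors and 6 of 7 other receptors. Signals of different probe sets depend on how each binds, so they are set against 64 and against the same probe set in other mice, and not against each other. Just above the threshold stood Ccl7 and Ccl1, with means of 72.8 and 84.3, and just under it Cxcr4 and Ccr10, with means of 61.4 and 60.9. In 31 genes every mouse was above 64, in 8 no mouse was, and in 9 the mice fell on both sides. Of the 14 genes with several probe sets, 5 had at least 2 of them above 64.

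**Figure D1:**
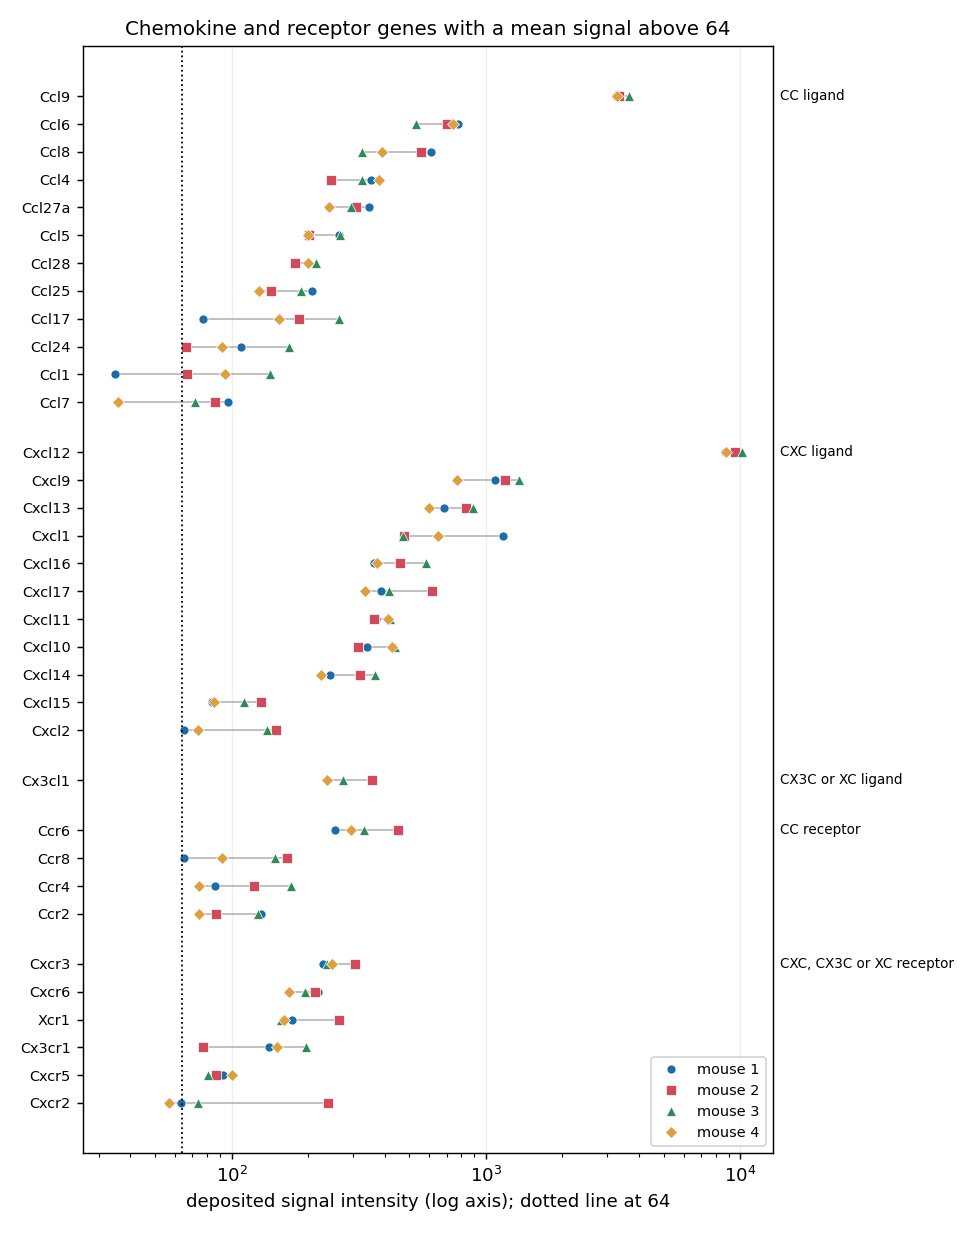
Deposited signal (log axis) of the 34 chemokine and receptor genes with a mean above 64, with 1 symbol per mouse and genes grouped by role. Cxcl12 and Ccl9 lie closely bunched, while Cxcl1 is set apart by mouse 1 (1164.2) and Cxcr2 by mouse 2 (238.6).

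Among CXC ligands, Cxcl12, which holds Cxcr4-bearing cells in place, measured 8676.1, 9537.7, 10124.7 and 8777.7 in mice 1 to 4. Highest and lowest mouse differed by 1.17-fold, and log2 signal was 13.18 ± 0.11 (SD, n = 4). Its second probe set gave 6166.2, 6231.9, 6285.5 and 6292.2, a 1.02-fold range. On neither probe set did a mouse stand clear of the others.

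Cxcl9, Cxcl10 and Cxcl11 share the receptor Cxcr3 on activated T cells and NK cells and are induced by interferon-gamma. Cxcl9 and Cxcl10 were singled out after their values were seen. Cxcl9 measured 771.9 in mouse 4, compared with 1089.1, 1184.5 and 1344.4 in mice 1 to 3, and its SD of 0.34 log2 became 0.15 without mouse 4. Cxcl10 measured 341.6, 313.3, 440.0 and 428.6 in mice 1 to 4. Cxcl11, the CXC ligand with the smallest SD above 64, measured 371.2, 363.2, 418.9 and 411.6, at 8.61 ± 0.10 log2 (SD, n = 4). C57BL/6 mice carry a Cxcl11 allele that is known not to give a full-length protein, so here the probe sets read the transcript. The 3 ligands therefore had different lowest mice: mouse 4 for Cxcl9 and mouse 2 for Cxcl10 and Cxcl11. All 3 were highest in mouse 3 on these probe sets. The second Cxcl11 probe set, under 64, did not share this order, with 59.7, 50.5, 50.5 and 55.8 in mice 1 to 4. Cxcr3, also singled out after its values were seen, measured 228.2, 306.5, 237.9 and 247.3, with its highest value in mouse 2, and its SD of 0.19 became 0.06 without that mouse.

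Cxcl1 had the widest spread for its level. This neutrophil attractant, which signals through Cxcr2, measured 1164.2 in mouse 1, compared with 474.7, 472.5 and 650.4 in mice 2 to 4. Mouse 1 was 1.15 log2 over the mean of the others, and highest and lowest differed by 2.46-fold. The SD of 0.61 log2 (n = 4) was 2.75 times the SD that limma's prior gives for this level, and it became 0.26 without mouse 1. limma's test of excess spread gave an unadjusted p of 0.028 and an adjusted p of 0.977, so the gene did not pass.

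Cxcl2, also a neutrophil attractant, was lowest in the mouse in which Cxcl1 was highest. It measured 65.1 in mouse 1, compared with 149.8, 138.4 and 73.9 in mice 2 to 4, with mouse 1 0.82 log2 under the mean of the others. Its SD was 0.61 log2 at a lower level, 1.13 times the prior SD there. Their receptor Cxcr2, carried by neutrophils, measured 238.6 in mouse 2, compared with 63.0, 73.8 and 56.7 in mice 1, 3 and 4. Mice 2 and 3 were above 64, and the SD of 0.96 became 0.19 without it.

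Neutrophil markers, measured beside these genes, had summed signals over 10 genes of 2284, 2138, 2530 and 1830 in mice 1 to 4. Of the 9 above 64, 6 were higher in mouse 1 than the mean of the others (median 0.36 log2) and 5 were higher in mouse 2 (median 0.10). Every signal on these arrays was above 0 (lowest 0.1), so the lack of a 0 does not show that neutrophils were present. The part of these markers in the values of Cxcl1, Cxcl2 and Cxcr2 was not tested.

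The other CXC ligands included Cxcl13, which draws B cells to follicles through Cxcr5, and Cxcl16, a membrane-bound ligand of Cxcr6. Cxcl13 measured 599.6 in mouse 4, compared with 686.0, 833.5 and 887.8 in mice 1 to 3. On its second probe set mice 1 and 4 were again the low ones, with 314.3, 546.0, 389.4 and 322.3 in mice 1 to 4. Cxcl16 measured 579.5 in mouse 3, compared with 363.4, 457.6 and 371.6 in mice 1, 2 and 4, and its SD of 0.31 became 0.18 without mouse 3. Its second probe set did not share this order: it was highest in mouse 4, at 298.1, against 224.2, 214.5 and 215.9 in mice 1 to 3. Cxcl17, a mucosal chemokine, measured 611.2 in mouse 2, compared with 388.2, 417.0 and 334.0 in mice 1, 3 and 4, and its SD of 0.37 became 0.16 without mouse 2. Cxcl14 averaged 288.9 and Cxcl15, the lung chemokine lungkine, 102.7, whereas Cxcl5, a ligand of Cxcr2, averaged 49.5, under the threshold. The second Cxcl14 probe set averaged only 5.45.

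Among CC ligands, Ccl9 had the smallest SD of the 34 genes above 64. It is a mouse ligand of Ccr1 made by myeloid cells, and it measured 3246.4, 3351.8, 3647.4 and 3281.0 in mice 1 to 4. That is 11.72 ± 0.08 log2 (SD, n = 4), a range of 1.12-fold, and the SD became 0.02 without mouse 3. The second Ccl9 probe set gave 390.0, 465.4, 440.1 and 350.3. Ccl6, the neighbouring myeloid chemokine, measured 528.8 in mouse 3, compared with 777.4, 705.2 and 740.7 in mice 1, 2 and 4. Its second probe set was also lowest in mouse 3, at 382.7, against 487.6, 523.9 and 606.2. Without mouse 3 the SD of Ccl6 was 0.07, against 0.25 with it.

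Of the related ligands Ccl8, Ccl7 and Ccl2, the first 2 were highest in mouse 1, in which Ccl2 was lowest. Ccl8, chosen after its values were seen, measured 607.5, 556.5, 324.4 and 389.0 in mice 1 to 4, and its SD of 0.43 log2 was 1.74 times the prior. Ccl7 measured 35.9 in mouse 4, compared with 97.1, 86.0 and 72.1 in mice 1 to 3, and its SD of 0.64 became 0.22 without mouse 4. Ccl2, the main monocyte attractant, had a mean of 58.2, under the threshold, and was chosen after its values were seen. It measured 18.4 in mouse 1, compared with 78.4, 65.9 and 70.1 in mice 2 to 4. Ccl12, another Ccr2 ligand of mice, averaged 17.3.

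Ccl17 and Ccl1 had the widest spreads of the CC ligands above 64 and were both low in mouse 1 and high in mouse 3. Ccl17, a dendritic cell product that attracts Ccr4-bearing T cells, measured 77.4 in mouse 1, compared with 184.3, 265.6 and 154.1 in mice 2 to 4. Ccl1, which signals through Ccr8, measured 34.7 in mouse 1, compared with 66.6, 141.9 and 93.9. Without mouse 1 their SDs of 0.75 and 0.86 became 0.40 and 0.55. Neither passed (adjusted p = 0.977 for both, limma).

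Markers of dendritic cells were measured beside Ccl17. Of 7 genes 6 lay above 64, with medians of 0.05 and -0.27 in mice 1 and 3, and summed signals of 2158, 2646, 1926 and 2117 in mice 1 to 4. Fscn1 alone gave 1038.7, 1250.0, 842.8 and 910.6 of these sums. The part of these markers in the Ccl17 values was not tested.

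The remaining CC ligands above 64 were Ccl4, which acts on T cells and macrophages (mean 326.0), Ccl27a (298.1), Ccl5 (232.7), the mucosal ligand Ccl28 (192.2), Ccl25 (166.3) and the eosinophil attractant Ccl24 (108.5). Their highest and lowest mice differed by 1.21-fold for Ccl28 to 2.54-fold for Ccl24. Under the threshold were Ccl2, Ccl3, Ccl11, Ccl12, Ccl20 and Ccl22, with means from 8.13 for Ccl22 to 58.2 for Ccl2.

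Cx3cl1, a membrane-bound ligand released by shedding, measured 351.8, 356.9, 275.2 and 236.2 in mice 1 to 4. Its 2 dimmer probe sets averaged 37.9 and 33.9 and were under 64. Xcl1, a product of NK and T cells, averaged 47.6, under the threshold.

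Among CC receptors, Ccr6, a receptor of B cells and T helper cells, measured 451.6 in mouse 2, compared with 254.1, 330.5 and 295.7 in mice 1, 3 and 4, and its SD of 0.35 became 0.19 without mouse 2. Ccr8 measured 64.8 in mouse 1, compared with 165.5, 147.9 and 91.9 in mice 2 to 4. Ccr4 measured 170.8 in mouse 3, compared with 86.1, 122.4 and 74.7 in mice 1, 2 and 4. Ccr2, the receptor of inflammatory monocytes, measured 130.6, 86.5, 126.9 and 74.4 in mice 1 to 4. The other 5 CC receptors, Ccr1, Ccr3, Ccr7, Ccr9 and Ccr10, lay under the threshold, with means from 9.85 for Ccr7, the lymph node homing receptor, to 60.9 for Ccr10.

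Cx3cr1, the receptor of Cx3cl1 on monocytes and NK cells, was lowest in mouse 2 on both of its probe sets. It measured 77.5 in mouse 2, compared with 139.8, 195.3 and 151.4 in mice 1, 3 and 4 on the brighter one, and 11.3, against 16.1, 82.1 and 15.4, on the dimmer one. Both were highest in mouse 3, the only mouse above 64 on the dimmer one. Xcr1, a receptor of cross-presenting dendritic cells, measured 263.8 in mouse 2, compared with 172.7, 156.1 and 161.2, and its SD of 0.35 became 0.07 without mouse 2. Cxcr5, the B cell receptor of Cxcl13, had the smallest SD of this group, with 92.9, 86.7, 80.7 and 100.1. Cxcr6, a receptor of liver NKT cells and tissue-resident T cells, averaged 198.8 on its brighter probe set and 5.3 on the dimmer one. Cxcr4, chosen after its values were seen, lay under 64 with 25.5 in mouse 4, compared with 58.9, 76.1 and 85.0 in mice 1 to 3.

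Markers of lymphocytes were measured beside the receptors. Of the T cell markers 8 of 11 lay above 64, of the NK cell markers 9 of 10 and of the B cell markers 7 of 8. Summed signals in mice 1 to 4 were 1308, 1422, 1256 and 992 for T cells, 1537, 1622, 2002 and 1386 for NK cells, and 2008, 2324, 2135 and 1730 for B cells, each lowest in mouse 4. The part of these markers in the receptor values was not tested.

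Ligands were paired with 1 receptor each, from general knowledge of the family. Of 27 pairs, both partners lay above 64 in 12, the ligand alone in 7, the receptor alone in 6 and neither in 2. Pairs with both above included Cxcl9, Cxcl10 and Cxcl11 with Cxcr3, Cxcl13 with Cxcr5, Cxcl16 with Cxcr6, Cx3cl1 with Cx3cr1 and Ccl17 with Ccr4. The ligand alone was above 64 for Cxcl12 with Cxcr4, Ccl9 and Ccl6 with Ccr1, Ccl24 with Ccr3, Ccl25 with Ccr9, and Ccl27a and Ccl28 with Ccr10. The receptor alone was above it for Ccl20 with Ccr6, Xcl1 with Xcr1, Cxcl5 with Cxcr2, Ccl22 with Ccr4, and Ccl2 and Ccl12 with Ccr2. In 3 of the 12 pairs above 64 both partners had their highest value in the same mouse. These were Ccl7 with Ccr2, Ccl17 with Ccr4 and Cxcl2 with Cxcr2. How many pairs of unrelated genes would share a highest mouse was not tested. The count is therefore a description, and no link between partners is drawn from it.

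No chemokine or receptor passed the test of excess spread between the mice. limma's test set the variance of each probe set against a prior that follows mean level, with Benjamini-Hochberg adjustment over the whole table of 22626 probe sets, and 0 of 65 member probe sets passed, with adjusted p of 0.977 or more. Over all probe sets 0 passed (0%). On simulated data the test found 3 of 50 probe sets given 4 times their SD and 17 of 50 given 8 times. Cxcl1, the widest member for its level, stood at 2.75 times the prior SD. The absence of passing members therefore does not show that they vary no more than the prior. An unadjusted p under 0.05 was found for 2 of the 65, Cxcl1 and 1 Ccr9 probe set that averaged 49.1, and for 3.71% of all probe sets. The median SD of the 34 genes above 64 was 0.33 log2, against 0.23 for all genes above 64. As ratios to the prior SD these are medians of 1.02 and 0.96, with 18 of 34 genes above 1 and 46.6% of all genes. Ligands and receptors had median SDs of 0.31 and 0.38 and median ratios of 1.03 and 0.99. In the 14 genes under 64 SDs ran from 0.26 to 1.27, where the median prior SD is 0.81.

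**Figure D2:**
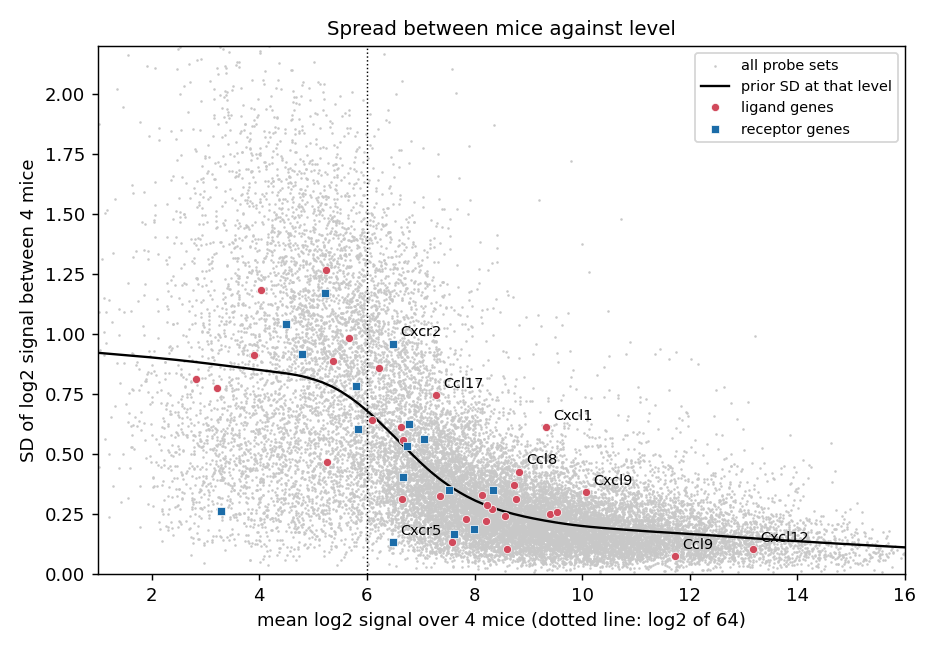
SD of log2 signal between the 4 mice against mean log2 signal, for all probe sets (grey points), the ligand genes (circles) and the receptor genes (squares). The line is the prior SD at each level, and Cxcl1, at an SD of 0.61, lies farther above it than the other named genes, while Ccl9 (0.08) lies below it. The axis ends at an SD of 2.2 and a few grey points lie beyond it.

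For the 14 genes with several probe sets, a further test compared the difference between mice that the probe sets share with their disagreement. Of these genes 0 passed when adjusted over all 4956 such genes, with adjusted p from 0.59 to 0.99 (limma, Benjamini-Hochberg), and 0 had an unadjusted p under 0.05. Over all 4956 genes 0.343% passed and 8.92% had an unadjusted p under 0.05. The lowest unadjusted value was 0.079, for Cx3cr1, followed by Cxcl13 (0.085), Ccr2 (0.090) and Ccl6 (0.096). Since all probe sets were read on the same 4 arrays, animal and array cannot be told apart by this test. On simulated data it found 8 of 50 genes given a shared SD between mice of 0.5 log2 and 23 of 50 given 1 log2.

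**Figure D3:**
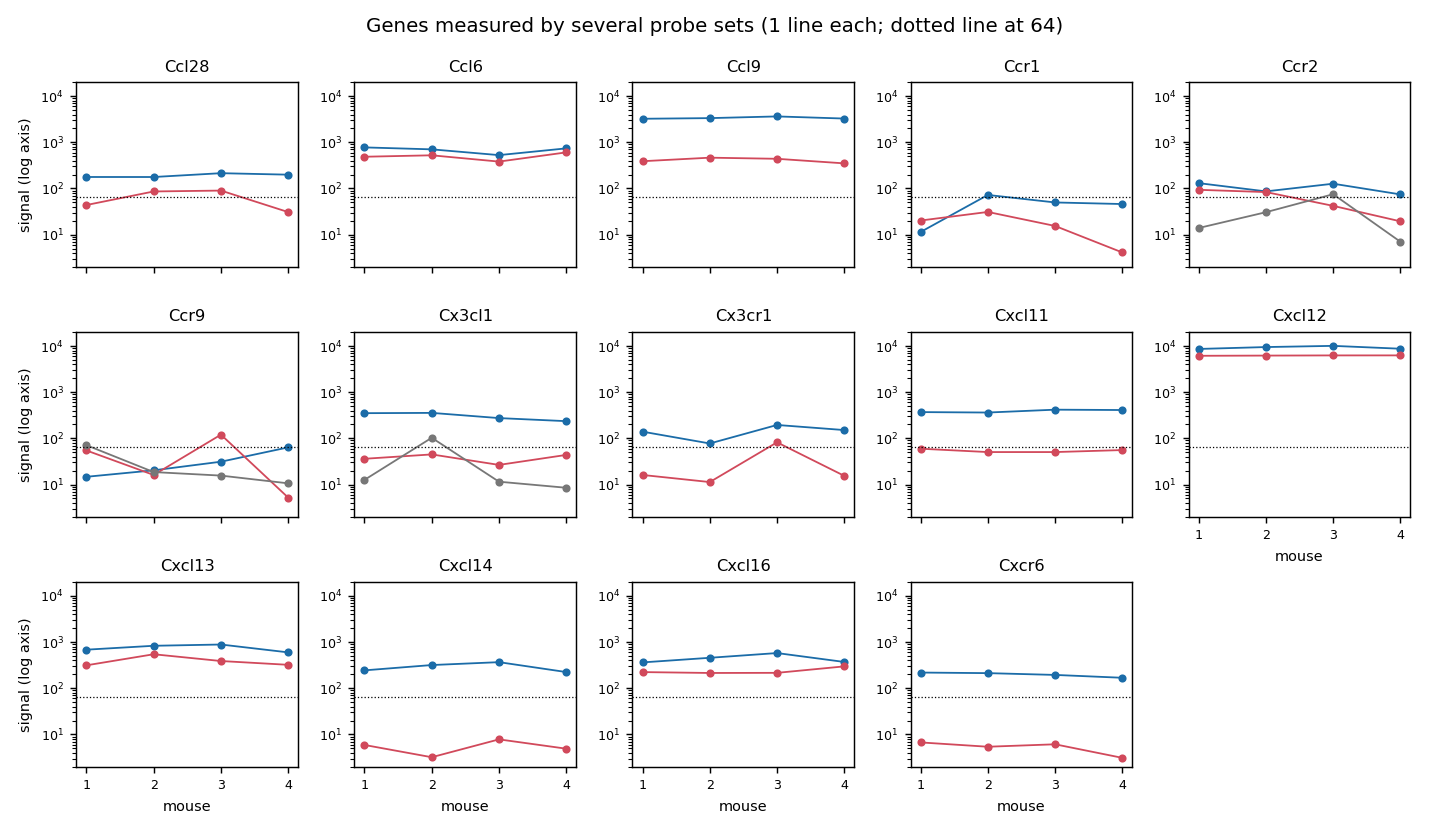
Signal (log axis) in mice 1 to 4 for the 14 genes with several probe sets, with 1 line per probe set and the dotted line at 64. Cxcl13, Ccl6 and Cx3cr1 keep their low mice across probe sets, and Cxcl16 does not. The dimmer line of Cx3cr1 lies mostly under 64. The dimmer lines of Ccr9, Ccr2 and Cx3cl1 vary widely, mostly under 64.

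Counted per mouse, the values of the 34 genes above 64 were lowest in mouse 4. Their median was 0.28 log2 under the mean of the other mice there, with 9 of 34 genes higher (43.9% of all genes above 64 were higher, median -0.04). Several marker lists were also low in mouse 4: the median was -0.31 for NK cells (1 of 9 higher), -0.34 for B cells (1 of 7 higher) and -0.25 for neutrophils (3 of 9 higher), whereas it was -0.09 for T cells (3 of 8 higher) and 0.07 for macrophages (10 of 16 higher). The summed signals of the NK, B, T cell and neutrophil lists were lowest in that mouse, and their part in the member values was not tested. The lower genes included Ccl7, Ccr4, Cxcl9, Ccr2, Cxcl2 and Cxcl13. In mouse 3 the median was 0.19, with 23 of 34 higher (60.0% of all genes, median 0.08), and in mouse 2 0.12, with 21 of 34 higher (57.5%, median 0.05). In mouse 1 it was -0.11, with 15 of 34 higher (42.8%, median -0.05). Mouse 3 held the highest value of 15 of 34 genes, against 33.8% of all genes, and mouse 4 the highest of 2, against 20.1%. Mice 1 and 2 held the highest of 8 and 9 (17.3% and 28.8% of all genes). The lowest value lay in mouse 4 for 13 genes (29.6% of all genes) and in mouse 1 for 10 (29.2%), in mouse 2 for 6 (20.3%) and in mouse 3 for 5 (20.9%). With no replicate of a mouse these shares are descriptions.

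Scaling moved these values. When the arrays were shifted to the same median, the member median of mouse 4 was -0.14 and the all-gene median 0.10, so the member minus all-gene difference was -0.24 both before and after. With quantile normalization that difference was -0.12. For genes with a mean above 64 and at most 16 times that, a band chosen after seeing the data, the members stood at -0.30 in mouse 4 and all genes at -0.11. In this band 45.2%, 61.3%, 64.5% and 29.0% of members were higher in mice 1 to 4, against 41.4%, 61.5%, 65.1% and 38.0% of all genes. Mouse 3 held the highest value of 38.7% of members and 36.4% of all genes there. Mouse 4 held the lowest of 38.7% and 34.9%. At a like level the shares of mice 2 and 3 were thus close to those of all genes.

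**Figure D4:**
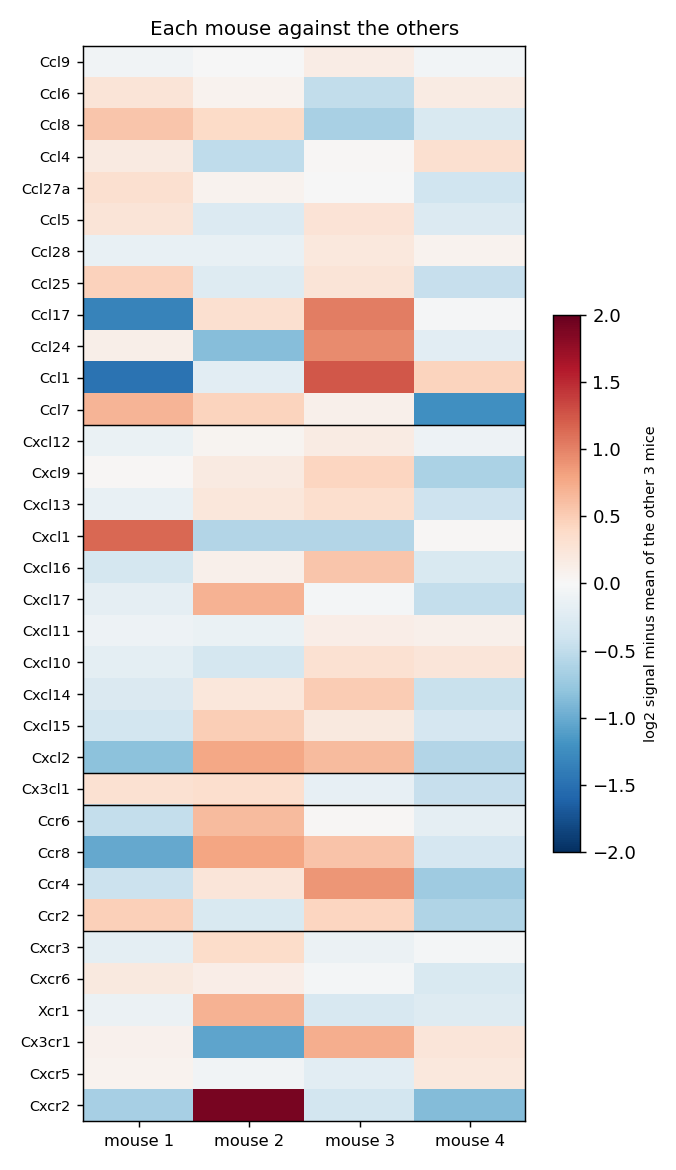
Log2 signal of each mouse minus the mean of the other 3, for the 34 genes above 64, with red higher and blue lower and lines between the role groups. Cxcr2 in mouse 2 (1.90) and Cxcl1 in mouse 1 (1.15) are deep red, Ccl1 (-1.47) and Ccl17 (-1.34) in mouse 1 are deep blue, and most of the mouse 4 column is pale blue.

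Genes beyond the family were read from lists. Of 12 atypical receptors and other chemoattractant genes 10 lay above 64, and 0 passed either limma test (1 had an unadjusted p under 0.05 for excess spread). Ppbp, a platelet CXC chemokine that the naming rule leaves out, measured 850.4 in mouse 2 and 489.4 in mouse 3, compared with 154.0 and 198.7 in mice 1 and 4 (SD 1.14 log2, adjusted p = 0.977, limma). Pf4, the other platelet chemokine, chosen after its values were seen, measured 390.0, 709.5, 614.2 and 367.6 in mice 1 to 4, with the same mice high. Ackr2, a scavenging receptor of CC chemokines, measured 234.3 in mouse 3 and 85.4 in mouse 4. Rarres2, the liver-made attractant chemerin, also chosen after its values were seen, measured 8418.9, 8863.9, 9219.5 and 8943.5.

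Signalling genes below the receptors had a median SD of 0.22 log2, against 0.23 for all genes above 64, with median ratios to the prior SD of 0.97 and 0.96. Of 31 such genes 29 lay above 64, and 0 passed either limma test (0 had an unadjusted p under 0.05 for excess spread). Gnaq, a G protein subunit, measured 179.5 in mouse 2, compared with 86.5, 85.5 and 85.2 in mice 1, 3 and 4, and Dock2, which drives leukocyte migration, 108.0 in mouse 2, compared with 193.1, 193.3 and 214.5.

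Of 29 inflammatory inducers and NF-kappa-B genes 27 lay above 64 and 0 passed either limma test (1 had an unadjusted p under 0.05 for excess spread). Tnf measured 215.2 and 353.4 in mice 2 and 3, against 35.7 and 32.7 in mice 1 and 4, and Lta 165.4 and 168.0 in mice 3 and 4, against 33.0 and 40.4 in mice 1 and 2. Nfkbia, the NF-kappa-B inhibitor that is also its target, was chosen after its values were seen and measured 15774.2, 16510.0, 15775.9 and 15022.6. Tnf, under 64 in mice 1 and 4, was high in the mice in which Cxcl2 was high, and low in mouse 1, in which Cxcl1 was highest. Lta did not share this order. The part of these genes in the Cxcl1 and Cxcl2 values was not tested.

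Interferon response genes, all 25 above 64, had a median 0.42 log2 over the other mice in mouse 3 (21 of 25 higher) and 0.40 under them in mouse 1 (1 of 25 higher). The interferon-inducible Cxcl9, Cxcl10 and Cxcl11 in mouse 3 were 0.43, 0.30 and 0.13 over the mean of the others. In mouse 1 they were at 0.02, -0.19 and -0.10. The second Cxcl11 probe set, under 64, had the opposite signs, at -0.13 in mouse 3 and 0.19 in mouse 1. The SDs of Cxcl9, Cxcl10 and Cxcl11, at 0.34, 0.24 and 0.10, lay on both sides of the list's median of 0.29. Oasl2, among the widest of the list, measured 444.8 in mouse 1, compared with 972.1, 1876.0 and 857.5 in mice 2 to 4. Mx2 measured 66.4, 60.5, 265.8 and 404.2 in mice 1 to 4. In limma's test of excess spread 0 of the 25 passed and 7 had an unadjusted p under 0.05, and Rsad2 passed the test of a shared difference (adjusted p = 0.043 over all 4956 genes, limma), with 3050.6, 3979.2, 5093.9 and 5931.4 in mice 1 to 4. This call was lost when any 1 mouse was left out, at adjusted p of 0.668, 0.073, 0.233 and 0.128 without mice 1 to 4 (limma). It was also lost with signals under 64 raised to 64 (0.081) and without probe sets ending in _s_at, _x_at or _a_at (0.261). In macrophage markers, all 16 above 64, medians were -0.13, -0.15, 0.17 and 0.07 in mice 1 to 4.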

How the data were processed

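Total RNA of 4 livers was extracted with Trizol, and 2 ug was amplified with RiboAmp and labelled with biotin, per the labels' protocols. Each deposited table lists a linear intensity for every probe set. RMA is named, with no version, per the submitters' processing notes. Trimmed means (2% off each end) were 1000.4 to 1000.5 on all arrays, whereas medians ran from 267.3 to 305.4 and the lowest signals were 0.1 to 0.2. The deposited values were thus scaled to a like mean and did not share 1 distribution. Whether RMA gave them was not checked. Detection calls were not used here. The number of arrays limits the precision.

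All tests ran on log2 intensity without a pseudocount. The 64 control probe sets were left out, leaving 22626. Symbols came from the platform annotation, and a look-up of Entrez identifiers among RefSeq genes changed 0 of them. Another 4 probe sets carried several symbols with a chemokine among them and were not used. Members, lists and tests were chosen with earlier results of these data known. Genes given per mouse are the 3 widest and the narrowest of each role group above 64, those with at least 2 probe sets above 64, and, in each pathway list, the 2 widest and any that passed a test; others are said to be chosen later.

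Spread was tested with squeezeVar of limma 3.58.1 (trended, robust prior; upper-tail F) in R 4.3.3, and shared differences with an additive model of probe set and mouse over the squeezed residual variance. Both were adjusted by the Benjamini-Hochberg method over the whole table at 0.05 and tested on simulated data. Alternatives were other scalings, a floor of 64, a pseudocount of 16, other priors and thresholds, fewer probe sets, and leaving out each mouse.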

Additional observations from a re-analysis of the deposited data

Results flagged for a closer look

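Of the 65 member probe sets, 3 had 1 mouse far from the other 3 by Dixon's criterion for 4 values, where chance gives about 1 in 20. The dimmer Cxcl16 probe set measured 298.1 in mouse 4, against 214.5 to 224.2 in the others, and the brighter one did not share this. Ccl2, with a mean under 64, measured 18.4 in mouse 1, against 65.9 to 78.4. The dimmest of the 3 Cx3cl1 probe sets measured 103.0 in mouse 2, against 8.5 to 12.6, while the brightest measured 356.9 in mouse 2 and 351.8 in mouse 1.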

How the results depend on the processing

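The 2 tests gave 0 chemokines and receptors in each of the 12 alternatives for excess spread and the 11 for a shared difference, with 1 to 3 probe sets and 0 or 1 genes at an unadjusted p under 0.05. The lowest adjusted p of a gene's main probe set was 0.213, with signals under 64 raised to 64. Both Cxcl1 and Cxcl12, among others, had this lowest value, so it singles out no gene. The count of genes above 64 was 34 to 36 when 1 mouse was left out, 28 without probe sets ending in _s_at, _x_at or _a_at, 30 with means over a gene's probe sets, 41 with signals raised to 64, and 42 and 24 at thresholds 1 log2 unit lower and higher. The median SD of 0.33 ran from 0.28 to 0.35. The member median of mouse 4 ran from -0.32 to -0.12, of mouse 3 from 0.07 to 0.21, of mouse 2 from 0.02 (without mouse 4) to 0.22 and of mouse 1 from -0.15 to -0.04, with no change of sign. Set against all genes, the difference of mouse 2 was 0.07, and -0.01 without mouse 4. No paired analysis was possible because all samples form 1 group. Across all genes the shared test passed 17 in the main setting, 55 after the median shift, 39 with probe sets of mean log2 of at least 6, 1 with signals raised to 64, 0 without probe sets ending in _s_at, _x_at or _a_at, and 0 to 4 when 1 mouse was left out; the cause was not tested.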
